A study of Mus musculus with 8 samples.

Results

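9 genes of natriuretic peptide and nitric oxide signalling were followed in whole kidneys of mice that lack CTRP1, a secreted protein encoded by C1qtnf1, and of their wild-type littermates. They were Npr1, Npr2, Npr3, Nos1, Nos3, Gucy1a3, Gucy1b3, Prkg1 and Pde5a, taken by gene name from the 23386 genes of the deposited table, and all 9 were found there. The mice were 49 weeks old and of the C57BL/6J strain, with 4 of wild-type genotype (WT) and 4 of genotype Ctrp1-/- (KO), born as littermates to heterozygous parents; the labels mention both sexes and do not give that of each animal. The knockout allele was made by deleting the coding part of exon 4 and some sequence after it in 129S5/Sv embryonic stem cells and was then backcrossed, so the gene was lacking in the whole body and not in the kidney alone. Each library came from poly-T selected RNA of a left kidney, and the labels name no treatment for either group. Of the 9 genes 4 lie on chromosome 3, and 0 lie within 10 Mb of C1qtnf1 on chromosome 11.

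Natriuretic peptides from the heart and other tissues bind NPR1 and NPR2, receptors whose inner part is a guanylyl cyclase that makes the second messenger cyclic GMP, while NPR3, the clearance receptor, takes the peptides up and removes them. Nitric oxide, made from arginine by nitric oxide synthases, switches on a different guanylyl cyclase, the soluble heterodimer of an alpha subunit (Gucy1a3) and a beta subunit (Gucy1b3). Cyclic GMP acts through protein kinase G (Prkg1) to relax vessels, is broken down by phosphodiesterases such as PDE5 (Pde5a), and in the kidney favours blood flow, filtration and the excretion of salt.

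The libraries held 15027400 to 19256378 counted reads each, recovered from the deposited FPKM (fragments per length of gene and per depth of library). Values below are FPKM divided by 1 scaling factor per library (0.978 to 1.03), called scaled FPKM. C1qtnf1, the targeted gene, measured 3.63 ± 0.877 in WT and 0.325 ± 0.174 in KO (SD, n = 4), with no overlap of the groups. Of 8 tubule markers, all 8 were tested, and their summed level was 4559 to 5425 in WT and 4590 to 5250 in KO, and the kidney genes Slc34a1, Umod, Slc12a1 and Aqp2 were at 107.7 scaled FPKM or more in every library. Markers of adrenal cortex summed to at most 0.136 scaled FPKM in any library and markers of fat to at most 5.67, in WT replicate 3. Markers of urothelium, the lining of the renal pelvis, were uneven, at 1.09 to 31.4 in WT and 4.35 to 43.5 in KO, highest in KO replicate 3 and then WT replicate 3. All 6 urothelial markers had a positive log2 fold change (median 0.45), and 0 of the 6 passed, where 0.0499% of all tested genes did. Their part in the results was not tested.

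Messenger RNA of the pathway was present at low to middling levels, and no member passed the test between the genotypes. Of the 9 genes, 8 had a mean of at least 0.5 scaled FPKM and entered the fit over 14022 genes. limma called 0 of these 8 at an adjusted p under 0.05, where 7 of all tested genes (0.0499%) were called. Limma's voom on the recovered reads also called 0 of the 8. At an unadjusted limma p under 0.05 there was 1 member, Gucy1b3, where 15.4% of all tested genes passed that mark. Gucy1b3 did not pass it without WT replicate 2 or without KO replicate 3. Gucy1b3 was also the 1 member of the 8 whose groups did not overlap, where 8.62% of all tested genes did not overlap and 4.28% did so with the lower values in KO. The median log2 fold change was -0.05 over the 8 members and -0.00124 over all tested genes, with 5 members below 0 and 3 above.

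**Figure D1:**
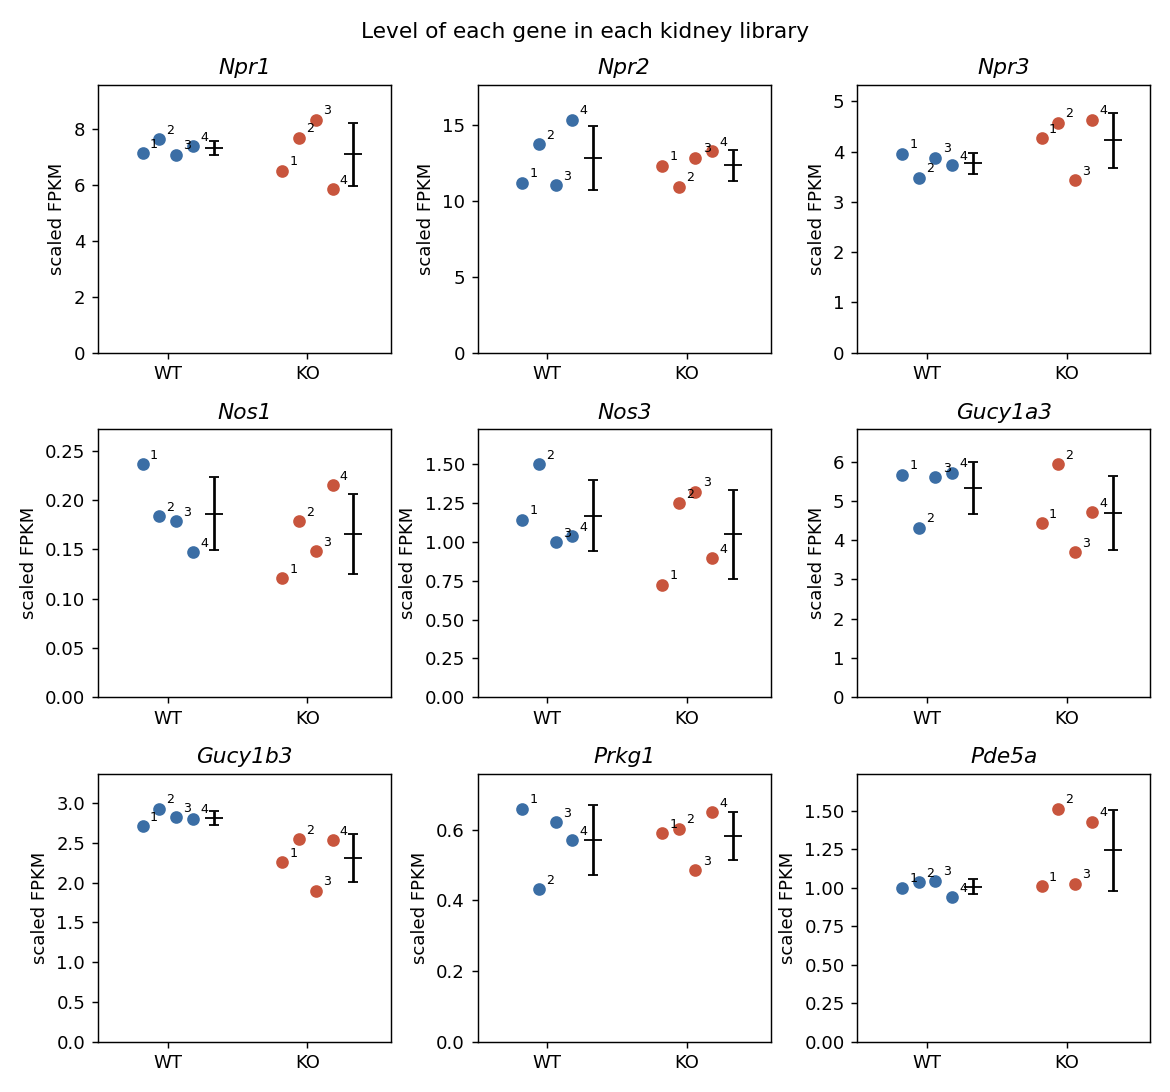
Scaled FPKM (vertical axes, linear, from 0) of the 9 genes in each kidney library of WT and KO mice. Points are libraries with their replicate number and black bars give mean ± SD (n = 4). Gucy1b3 ran from 2.71 to 2.93 among WT libraries and from 1.90 to 2.55 among KO libraries, and the groups overlapped for the other genes.

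Compared per length of gene, the natriuretic peptide receptors and the soluble cyclase stood above the synthases and the kinase. Over the 8 libraries Npr2 had the highest mean at 12.6 scaled FPKM, a level above that of 65.5% of tested genes, followed by Npr1 at 7.22, Gucy1a3 at 5.01, Npr3 at 3.99 and Gucy1b3 at 2.56. Pde5a at 1.13 and Nos3 at 1.11 came next, then Prkg1 at 0.577 and Nos1 at 0.176. Each gene was above the next in all 8 libraries except Pde5a and Nos3, which stood in that order in 4 of 8 and did not differ beyond their spread. The ranges of Npr1 and Gucy1a3, and of Gucy1a3 and Npr3, overlapped across libraries, although the order held within each library. The order depends on the deposited gene lengths. These were 3914 bases for Prkg1 and 6728 for Pde5a, where all their annotated exons joined span 10861 and 9831. For Nos3 both lengths were 4132. The order under other lengths was not tested.

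Gucy1b3 (ENSMUSG00000028005; chromosome 3, 82032004 to 82074711, minus strand, mm10) encodes the beta subunit of soluble guanylyl cyclase, which carries the heme that binds nitric oxide. It measured 2.71, 2.93, 2.82 and 2.80 scaled FPKM in WT replicates 1 to 4 and 2.26, 2.55, 1.90 and 2.53 in KO replicates 1 to 4. The WT libraries lay close together, and all 4 KO libraries were below the lowest of them, KO replicate 3 the furthest. The means were 2.82 ± 0.0892 and 2.31 ± 0.305 (SD, n = 4), so that the KO level was 82.0% of the WT level. The difference did not pass: the log2 fold change, on the scale of log2(scaled FPKM + 0.5) used throughout, was -0.25 (SE 0.09, 95% interval -0.45 to -0.04), with a limma adjusted p of 0.262. The counts behind it were 140 to 169 reads per WT library and 107 to 165 per KO library. Without KO replicate 3 the log2 fold change was -0.17 (limma adjusted p = 0.372), and it ranged from -0.29 to -0.23 without any other single library. The limma adjusted p was 0.470 without WT replicate 2 and 0.463 without KO replicate 1.

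Gucy1a3 (ENSMUSG00000033910; chromosome 3, 82092428 to 82145877, minus strand), the alpha subunit, lies next to Gucy1b3, 17716 bases away. Its levels were 5.67, 4.32, 5.60 and 5.72 scaled FPKM in the WT libraries and 4.43, 5.93, 3.69 and 4.71 in the KO libraries. WT replicate 2 stood below the other WT libraries, and KO replicate 2 was the highest of all, so the groups overlapped. With means of 5.33 ± 0.672 and 4.69 ± 0.933 (SD, n = 4) the log2 fold change was -0.18 (SE 0.13, 95% interval -0.47 to 0.12; limma adjusted p = 0.545), and it was -0.08 without KO replicate 3, -0.27 without WT replicate 2 and -0.28 without KO replicate 2. Smooth muscle and pericytes are vessel wall cells rich in this cyclase, and the summed level of 10 markers of these cells was 97.2, 73.6, 101 and 91.2 scaled FPKM in WT and 74.1, 101.9, 80.6 and 74.4 in KO. WT replicate 2 was the lowest WT library for both Gucy1a3 and these markers, and KO replicate 2 the highest KO library for both, whereas KO replicate 3, the lowest of all for Gucy1a3, was second highest of the KO libraries for the markers. All 10 markers had a negative log2 fold change with a median of -0.14, where 7070 of all 14022 tested genes were below 0. Of the 10, 0 passed over all genes, where 0.0499% of all tested genes did. An unadjusted limma p under 0.05 with lower values in KO was reached by 2 of the 10, and by 8.26% of all tested genes. Their part in the values of the cyclase subunits was not tested, and in RNA of a whole kidney fewer cells of a type cannot be told apart from less RNA per cell.

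The proportion of the subunits was also compared. The log2 ratio of Gucy1a3 to Gucy1b3, computed from FPKM + 0.1, was 1.04, 0.55, 0.97 and 1.00 in WT and 0.94, 1.19, 0.93 and 0.87 in KO. WT replicate 2 was low and the groups overlapped. The means were 0.89 ± 0.230 and 0.98 ± 0.142 (SD, n = 4), and the difference of 0.09 did not exceed the spread (exact two-sided permutation p = 0.629, adjusted p = 0.629 over the 4 ratios tested). Without WT replicate 2 the difference was -0.02.

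**Figure D2:**
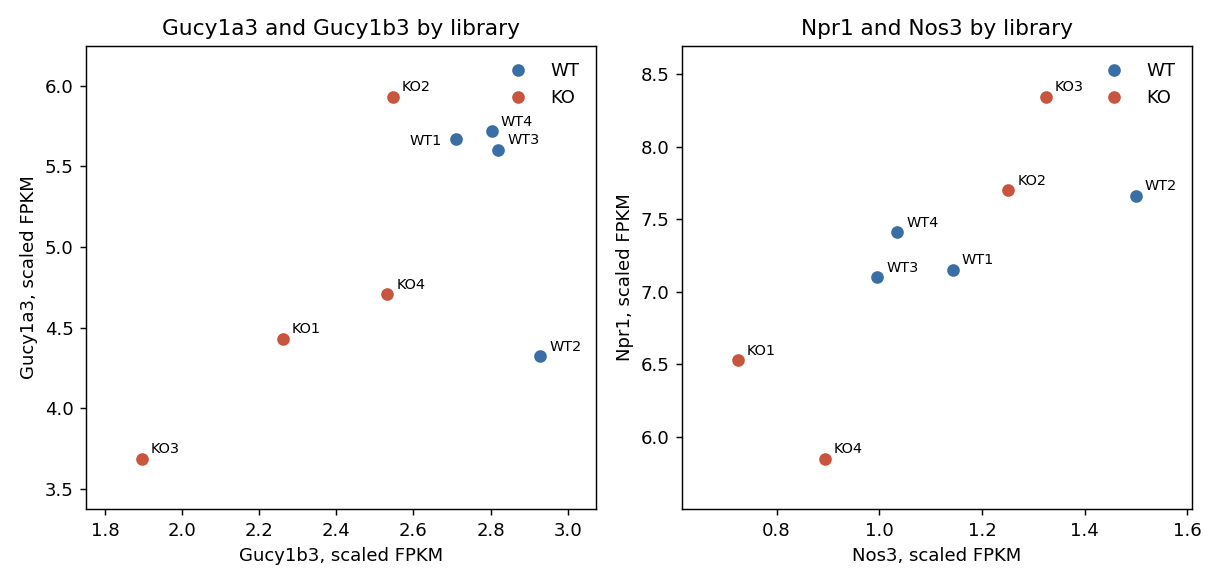
Scaled FPKM of Gucy1a3 (vertical) against Gucy1b3 (horizontal) at left and of Npr1 (vertical) against Nos3 (horizontal) at right, 1 point per library, linear axes that do not start at 0. The KO libraries lie to the left of the WT libraries for Gucy1b3, at 1.90 to 2.55 against 2.71 to 2.93, and KO replicates 1 and 4 are lowest for both Npr1 and Nos3.

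Sequence just upstream of the cyclase genes is shown because Gucy1b3 was the member whose groups did not overlap. This was so for 8.62% of all tested genes, and Gucy1b3 was not called. Promoter windows of 300 bases from RefSeq (build GRCm38.p6, around a start site) matched 8 of the 9 members, with Gucy1a3 and Gucy1b3 under their present names Gucy1a1 and Gucy1b1. They were searched on both strands for the letters GGGCGG, called a GC box, for a CCAAT box, named by its letters, and for a TATA box with the letters TATAAA, and matches of each were counted separately. Capitals mark the match within 30 bases, all on the minus strand of chromosome 3, and ATTGG is the CCAAT box read on the other strand.
Gucy1b3, CCAAT box, chr3:82074718-82074747: gctccactcgtcATTGGctgagaagaggtg
Gucy1b3, CCAAT box, chr3:82074772-82074801: cctctgtcactgATTGGctaagatatggga
Gucy1b3, GC box, chr3:82074834-82074863: gtcaccagactgGGGCGGgaaaatgtttga
Gucy1a3, GC box, chr3:82145871-82145900: aggatggcgactGGGCGGgagcagactcag
Npr1, CCAAT box, chr3:90466008-90466037: taaaggaccgggATTGGctcccccggctct
The matches of Gucy1b3 begin 24, 78 and 140 bases before the start site. The window of Gucy1a3 holds a GC box 238 bases before its first start site, and its other window holds none of these motifs. Npr1 has a CCAAT box 159 bases before its start site, and GC boxes 54 and 60 bases before it. Prkg1 and Pde5a also have a GC box and Prkg1 and Npr3 a CCAAT box, the window of Npr3 lying outside the gene's span in the deposited table. The windows of Npr2 and Nos1 have none of the 3 motifs, and no member's window has a TATA box. Of all 32851 windows in the table, 35.7% hold a GC box, 37.4% a CCAAT box and 13.6% a TATA box. A match describes letters and was not tested as a site of binding.

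Among the receptors, Npr1 (ENSMUSG00000027931; chromosome 3, 90450591 to 90465866, minus strand) encodes the receptor for atrial and brain natriuretic peptide. It measured 7.15, 7.66, 7.10 and 7.41 scaled FPKM in WT and 6.53, 7.70, 8.35 and 5.85 in KO. The KO libraries lay on both sides of the narrow WT range, with replicates 1 and 4 below it and 2 and 3 above. The means of 7.33 ± 0.258 and 7.11 ± 1.13 (SD, n = 4) gave a log2 fold change of -0.05 (SE 0.10, 95% interval -0.27 to 0.17; limma adjusted p = 0.826). Its direction was not stable, at 0.02 with trends in GC content and gene length removed and 0.03 without KO replicate 4. Its exons share 559 bases with the antisense gene Gm16048, which is absent from the deposited table. Without a stated strand setting, reads there cannot be assigned to either gene. In the inner medulla Npr1 sits in collecting duct cells, which carry the urea transporter Slc14a2. Slc14a2 measured 2.95, 14.1, 6.14 and 7.95 scaled FPKM in WT and 11.8, 9.52, 26.4 and 4.42 in KO. KO replicate 3, highest for Npr1, was highest for this marker too, and KO replicate 4 was lowest of the KO libraries for both. Other libraries did not follow this order. KO replicate 1 was below every WT library for Npr1, although its Slc14a2 exceeded that of KO replicates 2 and 4. WT replicate 1, lowest of all for Slc14a2, was above WT replicate 3 for Npr1. The part of such differences in the sampled tissue was not tested.

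Npr3 (ENSMUSG00000022206; chromosome 15, 11839896 to 11905674, minus strand), the clearance receptor, measured 3.96, 3.48, 3.88 and 3.73 scaled FPKM in WT and 4.26, 4.57, 3.43 and 4.63 in KO. KO replicates 1, 2 and 4 were above every WT library and KO replicate 3 was below them all. With means of 3.76 ± 0.212 and 4.23 ± 0.551 (SD, n = 4), the log2 fold change was 0.14 (SE 0.09, 95% interval -0.07 to 0.35; limma adjusted p = 0.486). Without KO replicate 3 it was 0.23 (limma adjusted p = 0.281), and with GC and length trends removed it was 0.05.

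The balance of signalling to clearance receptor was read as the log2 ratio of Npr1 to Npr3. It was 0.84, 1.12, 0.86 and 0.97 in WT and 0.60, 0.74, 1.26 and 0.33 in KO. KO replicates 1, 2 and 4 were below all WT libraries, whereas KO replicate 3 was the highest of all 8. The means were 0.94 ± 0.129 and 0.73 ± 0.389 (SD, n = 4), and the difference of -0.21 was within the spread (exact two-sided permutation p = 0.371, adjusted p = 0.629). Without KO replicate 3 the difference was -0.39 (exact permutation p = 0.0286, the smallest that 3 against 4 libraries allow, adjusted p = 0.114), and with GC and length trends removed it was -0.03 (exact permutation p = 0.914).

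Npr2 (ENSMUSG00000028469; chromosome 4, 43631935 to 43651244, plus strand) encodes the receptor for C-type natriuretic peptide. The libraries measured 11.2, 13.7, 11.0 and 15.3 scaled FPKM in WT and 12.3, 10.9, 12.8 and 13.3 in KO. The WT range enclosed all KO libraries but KO replicate 2, and the log2 fold change was -0.04 (SE 0.11, 95% interval -0.28 to 0.20; limma adjusted p = 0.876). An antisense gene, Gm12473, shares 266 bases of exon with Npr2 on the opposite strand, and without a stated strand setting reads there cannot be assigned. Gm12473 measured 14.7, 16.6, 8.29 and 17.3 scaled FPKM in WT and 8.82, 9.97, 11.9 and 11.0 in KO.

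The ligands of these receptors were near the limit of detection. Nppa, which encodes atrial natriuretic peptide, had 3 reads over the 4 WT libraries and 0 over the KO libraries, where 3 reads in a library correspond to 0.174 to 0.236 scaled FPKM. Nppc, the gene of C-type natriuretic peptide, had 1 read in WT and 3 in KO. No fold is given for either, and Nppb was not analysed here. Of the peptides' protease genes, Mme, encoding neprilysin, which degrades natriuretic peptides, had a mean level in scaled FPKM of 32.4 ± 4.11 for WT and 35.0 ± 2.67 for KO (SD, n = 4; log2 fold change 0.12, limma adjusted p = 0.557). That fold change was 0.04 without WT replicate 1, 0.07 without KO replicate 2, 0.19 without WT replicate 2 and 0.02 with GC and length trends removed. Corin, the protease that matures the atrial peptide, spread from 0.218 to 1.43 in WT and from 0.560 to 1.68 in KO, with a log2 fold change of 0.47 (SE 0.34, limma adjusted p = 0.531). It was 0.75 without WT replicate 2, 0.31 without WT replicate 1, 0.27 without WT replicate 3, 0.28 without KO replicate 3, 0.86 with voom, 0.23 with array weights and 0.76 with a pseudocount of 0.1. Its highest values were in KO replicate 3, WT replicate 2 and KO replicate 1, the libraries with the highest Slc14a2. Aqp2, another tubule marker, had a different order. It was highest in KO replicate 3 (446 scaled FPKM), WT replicate 4 (189) and WT replicate 2 (186), with KO replicate 1 at 170. The part of the sampled tissue in the values of Corin was not tested.

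Of the nitric oxide synthases, Nos3 (ENSMUSG00000028978; chromosome 5, 24364810 to 24384474, plus strand) is the endothelial enzyme. It measured 1.14, 1.4996, 0.996 and 1.04 scaled FPKM in WT and 0.725, 1.251, 1.32 and 0.894 in KO. KO replicates 1 and 4 were below every WT library, and WT replicate 2 was the highest of all. The means were 1.17 ± 0.229 and 1.05 ± 0.286 (SD, n = 4; log2 fold change -0.12, SE 0.16, 95% interval -0.47 to 0.23; limma adjusted p = 0.745), from 44 to 110 reads per library. Without 1 library it ran from -0.20 (without KO replicate 3) to -0.01 (without KO replicate 1), and it was -0.03 without WT replicate 2. Its exons share 1040 bases (25.2% of their joined length) with the antisense gene Gm15587 and 294 (7.12%) with Atg9b. Both of these genes were at or below 0.143 scaled FPKM in every library. Without a stated strand setting, reads there cannot be assigned to any of these genes.

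Set against endothelial RNA, Nos3 did not stand apart either. The 10 endothelial markers, among them Pecam1, Cdh5 and Kdr, summed to 228.9 to 252.6 scaled FPKM in WT and 217.8 to 271.6 in KO. Of the 10, 0 passed, where 0.0499% of all tested genes did. An unadjusted limma p under 0.05 with lower values in KO was reached by 1 of the 10, Ehd3, and by 8.26% of all tested genes. The log2 ratio of Nos3 to the mean of these markers was -3.85 ± 0.257 in WT and -3.996 ± 0.311 in KO (SD, n = 4), a difference of -0.15 (exact two-sided permutation p = 0.6, adjusted p = 0.629). Without KO replicate 1 the difference was -0.02.

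Nos1 (ENSMUSG00000029361; chromosome 5, 117781032 to 117958840, plus strand), the neuronal enzyme, marks the macula densa in the kidney, a small plaque of tubule cells. It was below the level set for testing, with 38, 33, 29 and 24 reads in the WT libraries and 18, 36, 26 and 36 in the KO libraries. In scaled FPKM these were 0.236, 0.184, 0.179 and 0.147 in WT and 0.121, 0.178, 0.148 and 0.215 in KO, and the groups overlapped. The exact 95% Poisson interval, which covers counting error only, was 0.167 to 0.324 for the highest library and 0.0717 to 0.191 for the lowest, so counting limits the comparison of single libraries. The mean difference on the log2 scale was -0.04, with an exact two-sided permutation p of 0.486. Nos2, the inducible enzyme, was likewise low in every library, at 0.212 ± 0.0569 in WT and 0.199 ± 0.0604 scaled FPKM in KO (SD, n = 4), from 8 to 20 reads per library.

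Downstream of cyclic GMP, Pde5a (ENSMUSG00000053965; chromosome 3, 122729158 to 122859374, plus strand), which degrades it, measured 1.00, 1.04, 1.05 and 0.940 scaled FPKM in WT and 1.01, 1.51, 1.03 and 1.43 in KO. KO replicates 2 and 4 stood above all other libraries, while KO replicates 1 and 3 lay within the WT range. The means of 1.01 ± 0.0488 and 1.246 ± 0.264 (SD, n = 4) gave a log2 fold change of 0.20 (SE 0.12, 95% interval -0.07 to 0.48), with a limma adjusted p of 0.453. Without KO replicate 2 it was 0.13.

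Prkg1 (ENSMUSG00000052920; chromosome 19, 30567551 to 31765033, minus strand), the kinase that cyclic GMP activates in vessel walls, measured 0.659, 0.432, 0.622 and 0.570 scaled FPKM in WT and 0.591, 0.603, 0.486 and 0.650 in KO. The groups overlapped nearly throughout. WT replicate 2 was the lowest of all libraries, and also the lowest WT library for Gucy1a3. The values of Prkg1 came from 30 to 47 reads per library, so counting limits the comparison of single libraries. The log2 fold change was 0.02 (SE 0.13, 95% interval -0.26 to 0.30; limma adjusted p = 0.962) and changed sign with quantile normalization (-0.02), with trends of GC content and length removed (-0.06) and without WT replicate 2 (-0.05) or KO replicate 4 (-0.01). The table counts the gene as a whole, so its isoforms are not separated. The log2 ratio of Prkg1 to Pde5a was -0.73 ± 0.249 in WT and -0.97 ± 0.217 in KO (SD, n = 4; difference -0.23, exact two-sided permutation p = 0.257, adjusted p = 0.629), and -0.35 apart without WT replicate 2 (exact permutation p = 0.0571, adjusted p = 0.229). Prkg2, the kinase form of epithelia and brain, was too low for the fit, at 0.317, 0.215, 0.339 and 0.349 scaled FPKM in WT and 0.0822, 0.192, 0.197 and 0.232 in KO, from 6 to 28 reads per library; WT replicate 2 lay below KO replicate 4, so the groups overlapped.

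**Figure D3:**
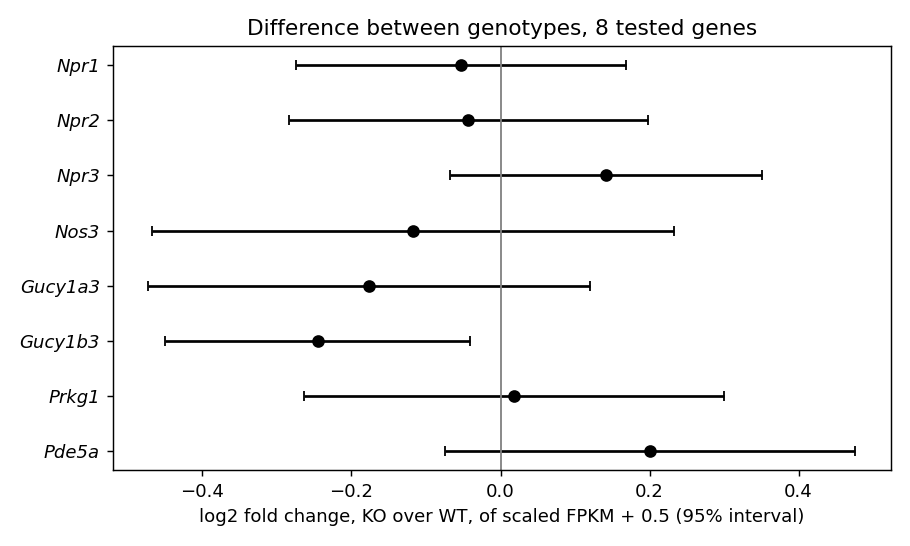
Horizontal axis: log2 fold change, KO over WT, of scaled FPKM + 0.5, for the 8 tested genes with the 95% interval of the limma fit (bars). The interval of Gucy1b3 runs from -0.45 to -0.04, and those of the other genes include 0.

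The spread among KO libraries was wider than among WT libraries for 7 of the 9 genes and for 6 of the 8 tested, where 46.4% of all tested genes had a larger SD in KO. For Pde5a the KO SD was 5.40 times that of WT, for Npr1 4.36 times and for Gucy1b3 3.42 times, whereas for Npr2 it was 0.484 times and for Prkg1 0.694 times. These ratios rest on 4 libraries a group and were not tested.

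Over the 8 libraries, 36 pairs of members were compared. With both genotypes pooled, Npr1 and Nos3 followed each other most closely, with Pearson's r of 0.78 (exact permutation p = 0.0224, adjusted p = 0.410). Spearman's rho was 0.88 (exact permutation p = 0.00724, adjusted p = 0.261), and r was 0.91 without the 2 libraries furthest from the median of Npr1. Around the mean of each genotype, r was 0.77 for this pair. It was then higher for Npr3 with Gucy1a3 (0.82), Prkg1 (0.82) and Gucy1b3 (0.81), and for Gucy1b3 with Pde5a (0.82). The r around the genotype means were not tested. Npr1 and Npr3 ran in opposite directions, with r of -0.69 and rho of -0.62 (exact permutation p of 0.0542 and 0.115, adjusted p of 0.435 and 0.802). Without the 2 libraries furthest from the median of Npr1, r was -0.24, over fewer libraries and a narrower range of Npr1. Pearson's r was further from 0 for Npr3 with Pde5a and with Prkg1 than for Npr1 with Npr3. For Npr3 and Pde5a, r was 0.76 and rho 0.45 (exact permutation p of 0.0342 and 0.267, adjusted p of 0.410 and 0.802). For Npr3 and Prkg1, r was 0.74 and rho 0.71 (exact permutation p of 0.0326 and 0.0576, adjusted p of 0.410 and 0.802). Without the 2 libraries furthest from the median of Npr3, these r were -0.14 and 0.79. No pair passed after adjustment. For Gucy1a3 and Gucy1b3, r was 0.67 and rho 0.29 (exact permutation p of 0.0606 and 0.501, adjusted p of 0.435 and 1), and r was 0.77 without the 2 furthest libraries.

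Across all tested genes, the gene most like each member was found by Pearson's r over the same 8 libraries, as a description. For Gucy1b3 it was Ttc38 (r = 0.99), with 55 genes above 0.9, and for Npr1 it was 2700081O15Rik (0.96). For Npr2 it was Lrg1 (0.96), for Npr3 Mipol1 (0.96), for Nos3 the potassium-chloride cotransporter gene Slc12a4 (0.96) and for Nos1 Lix1l (0.96). Gucy1a3 was most like St6galnac3 (0.96), Prkg1 most like Tmem70 (0.96) and Pde5a most like Prkd3 (0.97, although Spearman's rho was 0.43). With 8 libraries and 14022 genes such values are reached by many genes, and 7 to 55 genes exceeded 0.9 for each member.

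Of 76 further genes of the pathway, 73 were in the table and 52 were tested, and limma called 0 of them (0.0499% of all tested genes were called). With no adjustment, 1 was higher and 3 lower at a limma p under 0.05, where 7.18% and 8.26% of all tested genes passed. The groups did not overlap for 2 of the 52 (3.85%, against 8.62% of all tested genes), 1 lower and 1 higher, where 4.28% and 4.34% of all tested genes did so. The median log2 fold change of the 52 was -0.01. Their smallest limma adjusted p was 0.119, and voom called 0 with a smallest adjusted p of 0.0861.

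Genes of nitric oxide synthesis, its cofactor and arginine supply made up 26 of the tested genes, 9 above 0 and 17 below, with a median of -0.06. Ass1 and Asl, which together rebuild arginine from citrulline in the proximal tubule, had the smallest p in this group. Ass1 measured 2213, 2242, 2231 and 2085 scaled FPKM in WT and 1784, 1780, 1741 and 2051 in KO. KO replicate 4 lay close to the lowest WT library, and the groups did not overlap. Its log2 fold change was -0.26 (SE 0.07, 95% interval -0.41 to -0.10), and it did not pass (limma adjusted p = 0.173). Asl was at 116 ± 6.28 in WT and 96.5 ± 9.15 scaled FPKM in KO (SD, n = 4; log2 fold change -0.26, limma adjusted p = 0.178), and its KO replicate 4, at 109.8, was above the lowest WT library at 109.6. Slc34a1, a marker of the same tubule segment, had means of 2804 scaled FPKM in WT and 2422 in KO (limma adjusted p = 0.213), while Lrp2, the other marker of that segment in the list, had means of 171 and 177 (limma adjusted p = 0.779). The part of that segment in these values was not tested. With quantile normalization Ass1 was at -0.16. Asl was at -0.18 with GC and length trends removed and at -0.32 without KO replicate 4.

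Among 9 tested genes that break down or export cyclic nucleotides, 5 were above 0 and 4 below, with a median of 0.01. Pde1a, a calcium-activated phosphodiesterase, measured 14.8, 15.7, 14.9 and 15.3 scaled FPKM in WT and 18.3, 17.0, 19.2 and 18.9 in KO, with all 4 KO libraries above the WT libraries. Its log2 fold change was 0.27 (SE 0.05, 95% interval 0.15 to 0.38), and the limma adjusted p of 0.119 did not pass. With GC and length trends removed it was 0.18. Abcc4, a transporter that exports cyclic nucleotides, varied from 13.2 to 47.8 in WT and from 8.67 to 16.9 scaled FPKM in KO (log2 fold change -0.87, SE 0.39, limma adjusted p = 0.324), and it was -0.54 without WT replicate 3, the highest library.

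The 11 tested effectors and substrates had a median of -0.01, with 3 above 0 and 8 below. Rgs2, a brake on vasoconstrictor receptors that protein kinase G activates, ran from 6.75 to 8.98 scaled FPKM among WT libraries and from 5.83 to 7.85 among KO libraries (log2 fold change -0.19, limma adjusted p = 0.403). Lrmp was at 1.01 ± 0.259 and 0.805 ± 0.282 (-0.22, limma adjusted p = 0.572). Lrmp was at -0.36 without KO replicate 4, -0.13 without WT replicate 3, -0.12 with array weights and -0.34 with voom, and Rgs2 at -0.12 without WT replicate 3 or without KO replicate 2. Of the ligands of the intestinal guanylyl cyclase, Guca2b, uroguanylin, was abundant, at 454 ± 62.4 in WT and 439 ± 22.7 in KO. Guca2a, guanylin, stood at 1.80 ± 0.320 and 1.86 ± 0.428, from 15 to 24 reads per library. The log2 fold changes of Guca2b and Guca2a, -0.04 and 0.02, changed sign between settings (limma adjusted p of 0.875 and 0.958). Their receptor gene Gucy2c had 1 read over the WT libraries and 2 over the KO libraries.

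**Figure D4:**
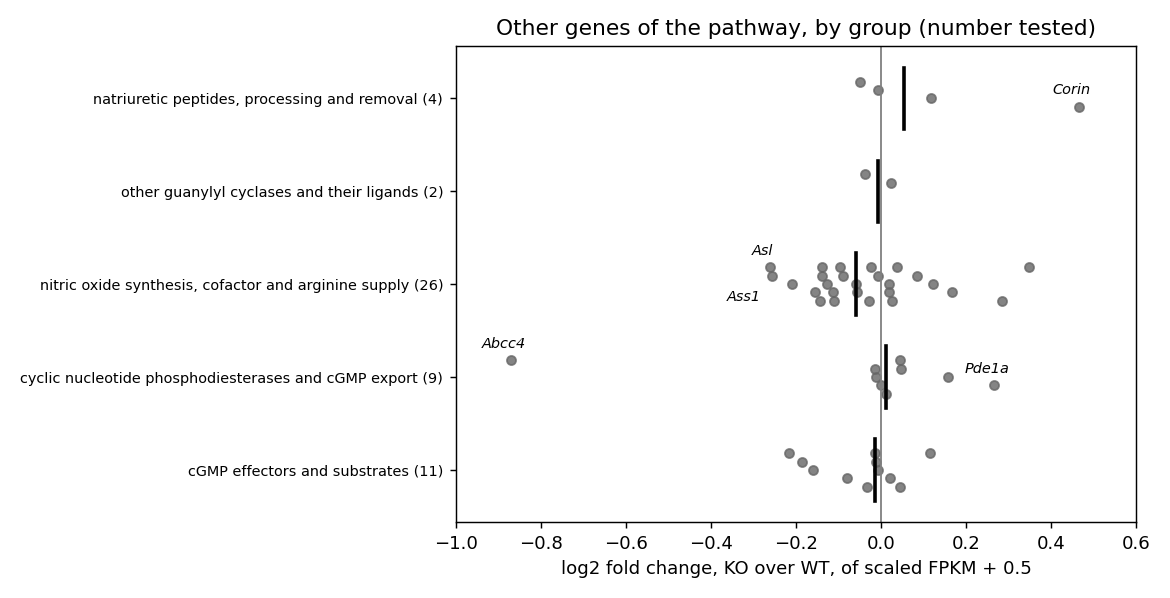
Horizontal axis: log2 fold change, KO over WT, of scaled FPKM + 0.5, for the 52 other pathway genes tested, in 5 groups with the number tested in brackets; grey points are genes and black bars are group medians. No gene passed, the medians ran from -0.06 to 0.06, and Abcc4 at -0.87 and Corin at 0.47 lie furthest from 0.

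Trends with base composition touch these values. Across the tested genes, which are not independent replicates, Spearman's rho of the log2 fold change with GC content was -0.44, and the median log2 fold change was 0.09 among genes of lowest GC content (bottom quintile) and -0.10 among those of highest (top quintile). Gucy1b3, with 43.8% GC, went from -0.25 to -0.30 when the trends were removed (limma adjusted p = 0.311). The podocyte markers, whose cells respond to natriuretic peptides, summed to 107 to 114 scaled FPKM in WT and 101 to 113 in KO. Of these 8 markers 0 passed, where 0.0499% of all tested genes did.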

How the data were processed

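The authors deposited FPKM per gene and library, per the file headers, with symbol, position and length. The build is mm10, per the submitters' processing notes, which list STAR 2.5, HTSeq 0.6.1, CASAVA and DESeq2 but no roles. Strand setting and annotation release are not given in the sources used here. Multiplied by gene length, 100% of FPKM were whole reads to within 0.01, which gave the counts of reads used here. Each library's FPKM was divided by a median-ratio factor. Genes with a mean of at least 0.5 were fitted as log2(scaled FPKM + 0.5) with limma 3.58.1 in R 4.3.3 (eBayes with trend, genotype as the only term, two-sided, Benjamini-Hochberg over 14022 genes, threshold 0.05). The 4 ratios used FPKM + 0.1 and exact permutation over 70 arrangements, whose smallest p is 0.0286. GC content and shared exons came from GENCODE M21, also on mm10. The labels call the libraries biological replicates and give no shared numbers, so none were paired. No library was a repeat of another (chi-square over degrees of freedom between replicates 6.39 to 18.4).

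The members and lists were chosen with earlier results of these data known. Named were the 9 members, C1qtnf1, the called genes or otherwise the 2 of smallest p of each pathway list, Nppa, Nppb, Nppc, Nos2, Prkg2, Mme and Corin, and the gene most like each member; Gucy2c, Gm12473, Gm15587, Gm16048, Atg9b and the markers were named after their values were seen. Reads were also simulated with the spread of these libraries, smoothed over genes of like level. There the fit over 14001 genes found 4 of 49 genes set at 1.25-fold, 26 of 48 at 1.5-fold, 39 of 50 at 2-fold and 45 of 47 at 4-fold. Of its 122 calls 8 were false. The real fit made 7 calls, so its cut on unadjusted p was stricter, and the simulation held no GC trend. The shares found may therefore be higher than the real fit would reach. Alternatives were other pseudocounts, filters, scalings and limma settings, voom on recovered reads, removal of GC and length trends by natural splines of 4 degrees of freedom, and leaving out each library.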

Additional observations from a re-analysis of the deposited data

Results flagged for a closer look

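Within groups of 4 libraries, 5 values stood apart from the other 3 by Dixon's test at the 95% level. Chance sets apart about 1 in 20 groups, and 55 groups were examined. WT replicate 2 was at 4.32 scaled FPKM for Gucy1a3 against 5.60 to 5.72 in the other WT libraries, and its log2 ratio of Gucy1a3 to Gucy1b3 was 0.55 against 0.97 to 1.04. KO replicate 4 was at 2051 scaled FPKM for Ass1 against 1741 to 1784 in the other KO libraries, and at 1.23 for Lrmp against 0.646 to 0.675. Nppc was at 0.0541 scaled FPKM in WT replicate 2, which is 1 read, and at 0 in the other WT libraries.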

How the results depend on the processing

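Under 20 alternatives to the fit, 0 members were called in each, and the smallest adjusted p of a member was 0.182, for Gucy1b3 with array weights. The direction of Gucy1b3, Gucy1a3, Npr3, Nos3 and Pde5a was the same in all of them, with Gucy1b3 between -0.302 and -0.172. The number of genes called over all, 7, ranged from 5 to 16 without 1 library (16 without WT replicate 3) and from 5 to 10 under the other settings. Log2 fold changes that changed sign were those of Npr1 (0.0224 with GC and length trends removed, -0.131 to 0.0294 without 1 library), Npr2 (0.0162 with trends removed, -0.108 to 0.0439 without 1 library) and Prkg1 (-0.0217 with quantile normalization, -0.0630 with trends removed, -0.0481 to 0.0618 without 1 library). The same held for Guca2b (0.0265 with quantile normalization, -0.136 to 0.0104 without 1 library) and Guca2a (-0.0102 with quantile normalization, -0.00160 with array weights, -0.00835 with voom, -0.0641 to 0.156 without 1 library). Without 1 library the difference in the log2 ratio of Gucy1a3 to Gucy1b3 ran from -0.0207 to 0.143 and that of Npr1 to Npr3 from -0.387 to -0.0780. The cause was not tested. Prkg1, Corin and Lrmp had no value with a minimum mean of 1. The planned edgeR and DESeq2 tests on recovered reads were not run, since the deposited unit is FPKM. No paired analysis was possible because the labels give the groups no shared replicate numbers. Depth limits Nos1, Nos2, Prkg2, Nppa, Nppc, Guca2a and Gucy2c, each with 38 reads or fewer in every library. It also limits Prkg1, with 30 to 47 reads per library.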
